A study of Mus musculus with 18 samples.

Results

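Here 5 genes of the postsynaptic side were followed through the H3.3 profiles of mouse nucleus accumbens. Anks1b, Magi2 and Dlg2 are of the postsynaptic scaffold and Gphn is of the GABA synapse. Camk2d encodes a kinase subunit and is counted here with the scaffold genes. The 5 genes were chosen by name from genes already known to carry a differential H3.3 site in these data. Every gene body or promoter site assigned to them was taken. That gave 6 sites of the 2300 in 2 deposited lists, and 5 of the 1041 genes with a gene body or promoter site. The values that chose the genes are therefore given as a description, without a test of the choice.

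H3.3 is the histone H3 variant whose deposition does not depend on DNA replication, and it is the form exchanged in non-dividing cells such as neurons. Its place on the genome was read by ChIP-seq, the sequencing of crosslinked chromatin pulled down with an antibody, after social defeat, a model in which a mouse is attacked by an aggressor. All mice were C57Bl/6J. Susceptible re-exposed mice had been through chronic defeat, were called susceptible in a social interaction test 48 h afterwards, and met an aggressor again before they were killed on day 28 after the last defeat. Acute stress mice were controls that met an aggressor without earlier chronic defeat, and control mice came straight from the home cage. The labels give day 28 and the social interaction test at 48 h for both of these groups as well. Each stress exposure took 1 h, with 5 min of aggression and 55 min of housing beside the aggressor. The labels give 3 ChIP and 3 Input libraries per condition, each from the pooled bilateral nucleus accumbens of 5 animals, and call the replicates biological. The deposited lists hold values of 3 susceptible and 2 control libraries, and of 2 acute stress and 2 control libraries. Libraries are named here by their position in the list, since it does not carry the labels' numbers. Where both lists hold a site at identical coordinates (18 sites), the control reads were equal in 18, so both comparisons used the same control libraries. No susceptible group without renewed stress was among the libraries. In pooled tissue, H3.3 lost from part of the cells and H3.3 lowered in all of them cannot be told apart.

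At an excitatory synapse, scaffold proteins hold glutamate receptors opposite the site of release and tie them to kinases. At an inhibitory synapse, gephyrin forms the lattice that holds GABA type A and glycine receptors. Most neurons of the nucleus accumbens are GABAergic medium spiny neurons that receive glutamate input on their spines and GABA input from each other and from interneurons. The genes are long, some use several transcription starts, and H3.3 in general is placed along transcribed gene bodies as well as at promoters and enhancers.

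All 6 sites were of the gene body class in the deposited annotation, and 0 were of a promoter class. Whether a site lies in an exon or an intron was not analysed here. Positions are on mm10. The Anks1b site (chr10:90864626-90864950) was assigned to transcript NM_181398 on the plus strand, 288 kb past its start and 72.7% of the way along it. It lay 90.1% of the way along the 1100 kb RefSeq gene, 991 kb past the first of 5 RefSeq starts and 34.9 kb past the last. The Dlg2 site (chr7:92263576-92263925) was assigned to transcript NM_001243047, whose start lies 28.8 kb before it. That start is the last of 3 counted here in a gene of 1973 kb, and the first of the 3 lies 1173 kb before the site. The RefSeq gene begins at base 90476188, before that first start at 91090786. The starts counted here are therefore not necessarily all starts of a gene. Both sites thus sat near the 3' end of very long genes and were nearest to an internal start. The first Magi2 site (chr5:19391326-19391600) lay 164 kb past the start of transcript NM_001170746 and the second (chr5:19820576-19820825) 594 kb past it. They were 429 kb apart in a gene of 1485 kb, and the second lay 86.8 kb before an internal start. The Camk2d site (chr3:126841826-126842150) lay 245 kb from the single start counted here and 4.34 kb before the end of transcript NM_001025438. It lay 98.3% of the way along the RefSeq gene, which begins at base 126595487, before that start at 126596951. The Gphn site (chr12:78313226-78313550) lay 86.7 kb past the single start of a 467 kb gene, 20.6% of the way along it. For scale, the median gene body site of the susceptible list lay 66.6 kb from its start when lower and 39.4 kb when higher, and the median lower site of the acute list 68.9 kb.

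**Figure D1:**
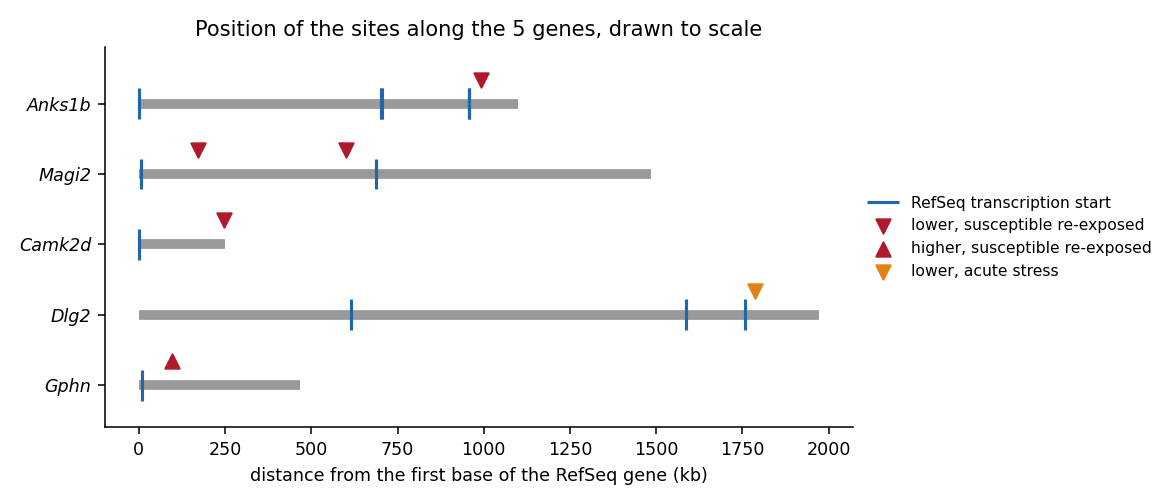
Each grey bar is a RefSeq gene drawn to scale from its first base, in kb, with transcription starts in blue and H3.3 sites as triangles pointing down for lower and up for higher than control. The Anks1b and Dlg2 sites lie close after an internal start, the Camk2d site close to the 3' end, and both Magi2 sites before the internal start.

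No genome sequence was used for the sites themselves. The RefSeq start windows next upstream of the Gphn, Anks1b and Dlg2 sites are printed, since they differ widely in base composition. They come from RefSeq (GRCm38.p6, the assembly of mm10), plus strand, 250 bases before to 50 bases after the start. Capitals mark a GC box, GGGCGG or CCGCCC, found by letter search on both strands.
Gphn, chr12:78226405-78226704: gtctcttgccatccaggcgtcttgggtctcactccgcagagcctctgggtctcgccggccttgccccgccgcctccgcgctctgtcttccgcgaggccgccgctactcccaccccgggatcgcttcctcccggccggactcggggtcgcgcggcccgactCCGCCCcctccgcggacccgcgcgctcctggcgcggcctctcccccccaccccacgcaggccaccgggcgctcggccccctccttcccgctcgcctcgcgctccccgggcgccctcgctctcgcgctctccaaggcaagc
Anks1b, last start, chr10:90829593-90829892: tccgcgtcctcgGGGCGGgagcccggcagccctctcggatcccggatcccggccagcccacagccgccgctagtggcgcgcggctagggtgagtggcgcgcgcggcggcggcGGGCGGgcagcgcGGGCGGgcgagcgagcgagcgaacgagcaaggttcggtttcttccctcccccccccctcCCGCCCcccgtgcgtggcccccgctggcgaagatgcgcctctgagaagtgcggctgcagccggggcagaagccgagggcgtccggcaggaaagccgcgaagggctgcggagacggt
Dlg2, last start, chr7:92234720-92235019: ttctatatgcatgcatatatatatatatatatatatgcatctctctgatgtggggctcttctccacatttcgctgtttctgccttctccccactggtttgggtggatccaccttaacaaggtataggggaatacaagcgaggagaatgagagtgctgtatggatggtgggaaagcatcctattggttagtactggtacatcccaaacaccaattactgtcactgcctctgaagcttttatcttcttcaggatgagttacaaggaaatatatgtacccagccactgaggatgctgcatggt
The Gphn window was 77.0% G and C with 42 CpG dinucleotides and 1 GC box, and the last Anks1b window 76.7% with 45 CpG and 4 GC boxes. The last Dlg2 window was 43.0% with 2 CpG and no GC box match. Over all 32851 RefSeq windows the median was 52.7% and 7 CpG, and 35.7% held a GC box. Among the 12 windows of the 5 genes, 5 held a GC box. The single Camk2d window had 70.3% and 31 CpG, and the first Magi2 window 69.3% and 29 CpG. The internal Magi2 start was poorer in G and C, at 43.0% with 4 CpG. The table holds 5 windows of Anks1b, 3 of Dlg2, 2 of Magi2 and 1 each of Camk2d and Gphn, and 0 listed sites overlapped any of them. A window without a listed site may hold H3.3 that did not differ, since the lists give differing sites only.

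In susceptible re-exposed mice, 4 sites had less H3.3 than in controls, all of them in the scaffold genes Anks1b, Magi2 and Camk2d, and 1 site had more, in Gphn. Dlg2 had no site in this comparison. Lower sites were carried by 2.64% of all protein-coding genes and by 29.8% of the 718 that are at least as long as Camk2d, the shortest of the 5. Higher sites were carried by 0.0822% and 0.696%. The genes were picked for having a site, so nothing about them follows from these shares. Values are the authors' normalised read counts, and folds and p per site are from the authors' deposited table unless given as pooled reads.

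Anks1b encodes AIDA-1, an ankyrin-repeat protein of the postsynaptic density that binds PSD-95 and NMDA receptors. Its site held 3.26, 2.48 and 2.94 normalised counts in the 3 susceptible libraries, against 13.76 and 13.35 in the 2 control libraries. The 3 susceptible values lay close together, but they rest on 2, 3 and 2 reads. The groups did not overlap, with 10.1 counts between the nearest libraries. The means were 2.89 ± 0.392 (SD, n = 3) over the susceptible libraries, against 13.6 ± 0.290 (SD, n = 2) in controls. The authors' deposited table gives a log2 fold change of -2.23 with p = 8.49e-06 and adjusted p = 0.00137, the smallest p among the 6 and number 243 of 1286 in its list. There were 7 reads in susceptible and 40 in control libraries, and their ratio per unit of depth, the pooled ratio, was 0.207 (exact 95% interval 0.0783 to 0.467, which covers counting error only).

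Magi2 encodes S-SCAM, a membrane-associated guanylate kinase with inverted domain order that is found at excitatory and inhibitory synapses and binds neuroligins. Its first site held 3.26, 1.66 and 1.47 normalised counts in susceptible libraries, against 11.93 and 10.68 in control libraries. Its second site held 3.26, 0.83 and 0.00 in susceptible libraries, against 10.09 and 9.61 in control libraries. At both sites the first susceptible library was the highest of its group and still far under the lower control. That library held 2 reads at each site, and the second susceptible library also held 2 at the first site. The means were 2.13 ± 0.983 and 1.36 ± 1.69 (SD, n = 3) over the susceptible libraries, against 11.3 ± 0.884 and 9.85 ± 0.339 (SD, n = 2) in controls. The control mean of the second site (9.85) was the lowest among the 693 lower gene body and promoter sites of its list and was shared by 61 of them. In the authors' deposited table the log2 fold change is -2.41 at the first site and -2.86 at the second, and the adjusted p is 0.00186 and 0.00138. The pooled ratios were 0.179 (0.0546 to 0.462) on 5 susceptible and 33 control reads, and 0.122 (0.0239 to 0.395) on 3 and 29. These intervals overlap almost wholly, and whether the sites differ in their loss was not tested. No listed site lay between or around them elsewhere in the gene.

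Camk2d encodes the delta subunit of calcium/calmodulin-dependent protein kinase II, the kinase that is activated by calcium entry at the synapse, with alpha and beta as the main forms in forebrain neurons. Its site held 1.63, 3.31 and 1.47 normalised counts in susceptible libraries, against 13.76 and 11.75 in control libraries. Here the second susceptible library was the highest, and the gap to the lower control was 8.44 counts. The means were 2.14 ± 1.02 (SD, n = 3) over the susceptible libraries, against 12.8 ± 1.42 (SD, n = 2) in controls. The authors' deposited table gives a log2 fold change of -2.58 with adjusted p = 0.00138. The 6 susceptible and 37 control reads gave a pooled ratio of 0.192 (0.0662 to 0.459).

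Gphn encodes gephyrin, which also takes part in molybdenum cofactor synthesis outside synapses. Its site held 13.02, 10.76 and 11.74 normalised counts in susceptible libraries, against 1.84 and 3.20 in control libraries. All 3 susceptible values were thus in the range where control values lay at the scaffold sites, and both control values were in the range of the susceptible ones there. The means were 11.8 ± 1.13 (SD, n = 3) over the susceptible libraries, against 2.52 ± 0.962 (SD, n = 2) in controls. The authors' deposited table gives a log2 fold change of 2.23 with p = 4.08e-05 and adjusted p = 0.00206. The 29 susceptible and 8 control reads gave a pooled ratio of 4.29 (1.91 to 10.9). This was 1 of 31 higher sites among 1286.

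**Figure D2:**
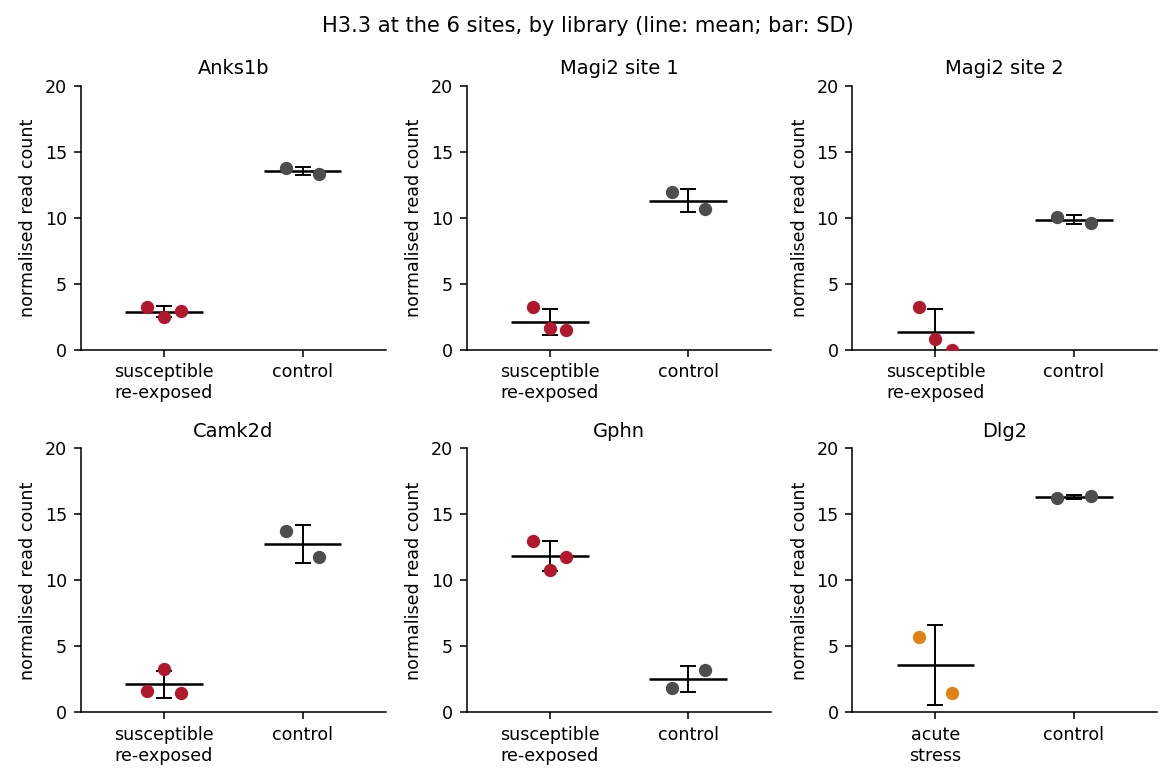
Normalised read counts of each library (points) with group mean (line) and SD (bar) at the 6 sites, stressed group on the left and control on the right of each panel. At each site the 2 groups are apart, and Gphn is the site where the stressed libraries, at 10.76 to 13.02, lie above the controls.

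After acute stress the single site was in Dlg2, which encodes PSD-93, a membrane-associated guanylate kinase that anchors NMDA receptors and potassium channels. It was lower in both stressed libraries, with 5.70 and 1.43 normalised counts in acute stress libraries, against 16.22 and 16.43 in control libraries. The acute values were far apart from each other and the control values nearly equal. The acute stress mean was 3.57 ± 3.02 and the control mean 16.3 ± 0.148 (SD, n = 2 each). The log2 fold change in the authors' deposited table is -2.19, with p = 9.88e-05 and adjusted p = 0.0138. That p was number 1009 of 1014 in a list whose largest is 9.98e-05, so the site stood just inside the limit of the list. On 7 acute stress and 40 control reads the pooled ratio was 0.244 (0.0924 to 0.551). The exact counting test gave p = 0.000149 at this site, short of 0.0001. Lower sites were carried after acute stress by 1.13% of all protein-coding genes and 13.4% of those at least as long as Camk2d, and higher sites by 1.11% and 11.3%.

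**Figure D3:**
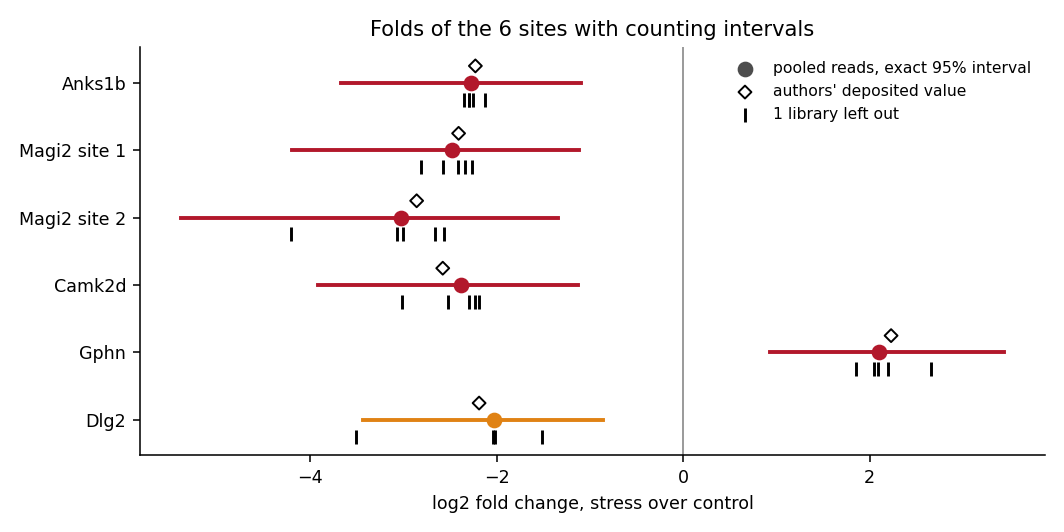
Log2 fold change, stress over control, of pooled reads (filled points) with exact 95% counting intervals, of the authors' table (diamonds) and of pooled reads with 1 library left out (ticks). The 5 lower sites have intervals under 0 and Gphn one above it; leaving out the second acute stress library brings Dlg2 to -1.52.

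The 5 susceptible sites all passed the exact counting test at 0.0001, as did 99.5% of listed lower and 83.9% of listed higher sites. Dlg2 did not, in an acute list where 96% of lower sites did. The counting test used the same counts that put the sites in the lists and pooled reads over libraries. A pass is therefore no separate support for a site. The p of this test sums every outcome no likelier than the one seen. With the smaller tail of the exact test doubled instead, a setting chosen after seeing the data, Gphn had p = 0.000107 in place of 8.63e-05 and no longer passed, while the 4 lower susceptible sites still did. By that rule 84.7% of lower and 71% of higher susceptible sites passed, and 77.8% of lower acute sites. Groups did not overlap at any of the 6 sites, which was also so at 100% of lower sites in both lists and at 90.3% of higher susceptible sites. These shares come from the contrast that made the lists and say nothing particular to the genes. With 1 of the 5 libraries left out, between 0 and 3 of the 5 susceptible sites passed the counting test. The count was 0 without the second susceptible or the second control library, which were the deepest of their groups by the value of 1 read. It was 3 without the first susceptible library, 1 without the third and 2 without the first control library. The direction held in each of these runs. Dlg2 passed in 0 of 4 such runs, and its log2 ratio of pooled reads was -3.52 without the first acute stress library and -1.52 without the second. At a stricter authors' p of 1e-05, Anks1b was the single site left, where 21.1% of the susceptible and 16.2% of the acute list passed. With libraries scaled to equal reads over all listed sites, the log2 fold changes at the 4 lower susceptible sites lay between -0.83 and -0.15 and none passed, while Gphn and Dlg2 did. The susceptible list is nearly all lower sites, so such a scaling takes out what they share, whatever its source. The part of normalisation in this shared difference was not tested.

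**Figure D4:**
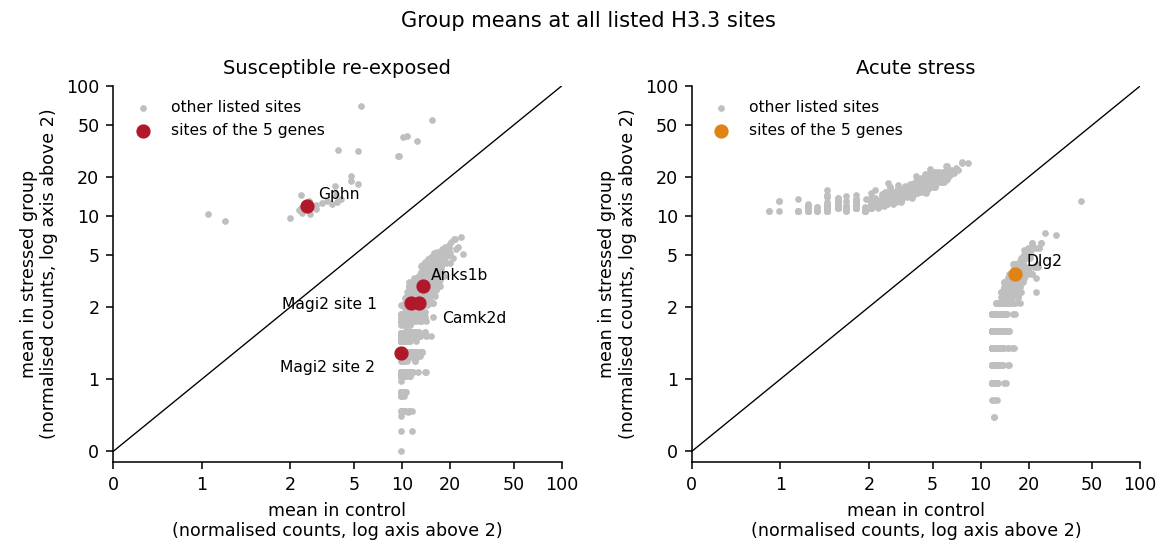
Mean normalised count in the stressed group against the control mean at every listed site (grey) and at the 6 sites (coloured), on axes that are linear up to 2 and logarithmic above, with the line of equal means. Lower sites crowd at control means of about 10 to 20, and the scaffold sites lie within that crowd, while Gphn lies among the few higher susceptible sites.

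Among the lower gene body and promoter sites of the susceptible list, the median of the means was 2.34 for susceptible mice and 12.1 for controls, and the median log2 fold change was -2.40. The 4 scaffold sites lay on both sides of this median, from -2.23 at Anks1b to -2.86 at the second Magi2 site. The median higher site had 13.3 in susceptible mice and 3.73 in controls, against 11.8 and 2.52 at Gphn. The median acute lower site had 2.38 after acute stress and 14.5 in controls, against 3.57 and 16.3 at Dlg2.

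The deposited tables also give the strongest window of 250 bp inside each site. For Dlg2 the log2 fold change in this window was -3.78, a larger change than over the whole 350 bp. For Gphn it was 2.68, in the last 250 of 325 bp. For Camk2d it was -2.75, for the first Magi2 site -2.81 and for Anks1b -2.49. The second Magi2 site was itself 250 bp long. These window values are the authors' deposited table's own and were picked as the strongest. Their log2 fold changes were larger than those of the sites, except at the second Magi2 site, where both were -2.86. At Anks1b the authors' deposited p was 2.66e-05 for the window and 8.49e-06 for the site.

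The tables further give each group an enrichment ratio whose denominator no source used here states. At both Magi2 sites, Camk2d and Dlg2 it went the way of the counts. It was 0.35 in susceptible mice and 1.3 in controls at the first Magi2 site, and 0.59 in susceptible mice and listed as infinite in controls at the second. At Camk2d it was 0.57 in susceptible mice and listed as infinite in controls, and at Dlg2 0.71 after acute stress and listed as infinite in controls. At 2 sites it went the other way. The Anks1b ratio was listed as infinite in susceptible mice and 0.32 in controls, and the Gphn ratio was 1.44 in susceptible mice and listed as infinite in controls. An infinite control ratio was given at 59.8% of sites in the susceptible list and 57.9% in the acute list. For the stressed group, as at Anks1b, an infinite ratio was given at 10.2% and 39.3% of sites. The part of the denominator in the called differences was not tested.

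No site of the 5 genes was shared between the comparisons. With an overlap of 1 bp, 0 of the 6 sites met a site of the other list, and no site of the other list fell anywhere inside the same gene. The nearest acute site to Camk2d lay 121 kb away, a higher site in the neighbouring gene Ank2. For the other sites the nearest one in the other list was between 0.639 and 5.57 Mb away. A gene without a listed site has no value, so its level in the other comparison is unknown.

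All 5 genes are long, and the share of protein-coding genes with a site was larger among longer genes. Anks1b, Magi2 and Dlg2 are among the 59 genes over 1000 kb, of which 59.3% had a lower susceptible site, 27.1% a lower acute site and 25.4% a higher acute site. Camk2d and Gphn are among the 495 genes of 250 to 500 kb, where these shares were 21.0%, 9.29% and 8.89%, and where 0.808% had a higher susceptible site. Among genes under 50 kb the shares were 0.720%, 0.301% and 0.454%. A longer gene offers more positions for a site, and the part of length in these genes' sites was not tested.

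**Figure D5:**
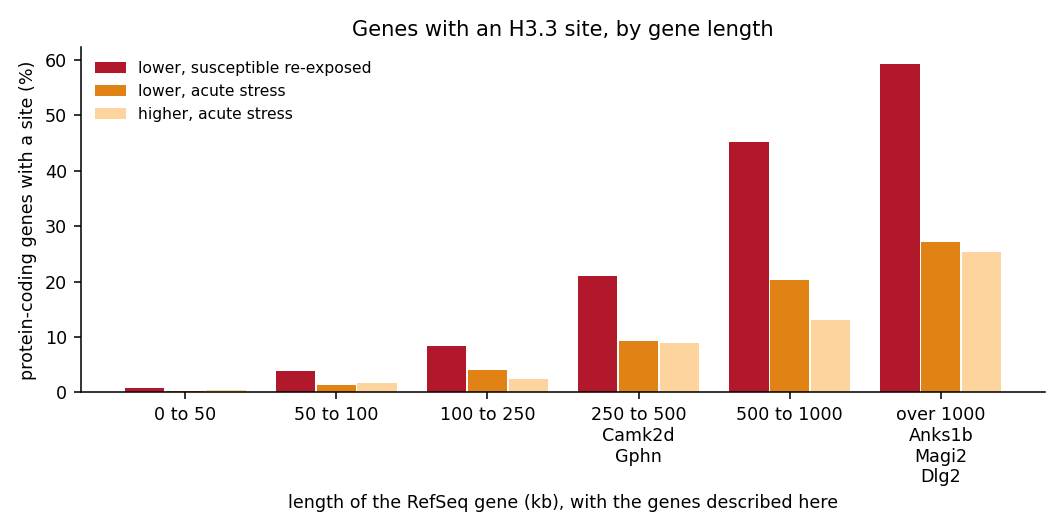
Share of protein-coding genes with a gene body or promoter site, in percent, by RefSeq gene length in kb, for lower susceptible, lower acute and higher acute sites. The share of genes with a lower susceptible site is 0.720% in the shortest class and 59.3% in the longest, which holds Anks1b, Magi2 and Dlg2.

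The genes were set beside 2 wider lists drawn from textbook knowledge, with results of these data known. Of 40 postsynaptic scaffold genes, 8 had a lower susceptible site (20%), 4 a lower acute site (10%) and 0 a higher site in either comparison. These counts include Anks1b, Magi2, Camk2d and Dlg2, which were picked for having a site. Without the 4, a lower susceptible site was carried by 5 of 36 list genes and a lower acute site by 3 of 36. Over all protein-coding genes the shares were 2.64% and 1.13%. All of these list genes were among the 11 remaining ones at least as long as Camk2d. Of those 11, 45.5% and 27.3% had such a site, beside 29.8% and 13.4% of all protein-coding genes that long. The list itself was drawn up with results known, so nothing particular to it follows from the counts. The median log2 fold change over the 10 lower susceptible sites of the list was -2.49, and over its 5 lower acute sites -2.19, beside -2.40 and -2.64 over all lower gene body and promoter sites. Besides Anks1b, Magi2 and Camk2d, the susceptible genes were Dlgap1 and Dlgap2, whose proteins link PSD-95 to Shank, Magi1, the paralogue of Magi2, Lrrc7, encoding densin-180, and Kalrn, encoding a guanine nucleotide exchange factor of dendritic spines. Magi1 carried 2 lower sites, as Magi2 did. The first held 0.00, 4.14 and 1.47 normalised counts in susceptible libraries, against 11.01 and 11.21 in control libraries. The second held 6.51, 2.48 and 2.94 in susceptible libraries, against 16.52 and 13.35 in control libraries. Dlgap2 had 0.00, 4.14 and 0.00 in susceptible libraries, against 11.93 and 11.21 in control libraries. The second susceptible library was the highest at Dlgap1, Dlgap2 and the first Magi1 site, at 4.14 each, and at Camk2d, at 3.31. That library was the lowest at Anks1b, Lrrc7, Kalrn and the second Magi1 site, and not the highest at either Magi2 site.

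After acute stress the list genes with a lower site were Dlg2, Lrrc7, Kalrn and Grip1, whose product binds AMPA receptor subunits. Lrrc7 held 1.90 and 0.00 normalised counts in acute stress libraries, against 11.90 and 11.83 in control libraries. Grip1 had 2 lower sites. The Kalrn site held 2.85 and 5.72 in acute stress libraries, against 18.39 and 15.11 in control libraries. The exact counting test gave p = 0.000149 at the Kalrn site and at 1 of the Grip1 sites too, so with Dlg2 3 of the 5 acute sites of the list did not pass it. Lrrc7 and Kalrn had a lower site in both comparisons, at different places in the gene. Lrrc7 had log2 fold changes of -1.95 in susceptible mice and -3.64 after acute stress, and Kalrn -1.65 and -1.97, in the authors' deposited table. The comparisons share their controls, so the repeat of a gene is not a separate observation. The Dlg genes other than Dlg2, the Shank and Homer genes and the other CaMKII genes had no gene body or promoter site listed.

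Of 31 GABA synapse genes, Gphn had the only higher site in susceptible mice, and it was picked for that site, so the count says nothing about the list. No gene of the list had an acute site. The GABA synapse genes are shorter than the scaffold genes, with a median of 88.6 kb against 152 kb, and 17.2 kb over all protein-coding genes.

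Other cell types of the tissue were represented by short marker lists. Lower susceptible sites were assigned to 1 of 6 astrocyte genes (Aldh1l1) and 1 of 4 endothelial genes (Vwf). They were also assigned to 2 of 3 oligodendrocyte precursor genes (Pdgfra and Tnr). The Pdgfra site was of a promoter class, at -0.791 kb from the start and thus before the gene. The Vwf site was of the gene body class, 134.29 kb from its start, beside a RefSeq gene length of 133.73 kb. None of 9 medium spiny neuron, 5 oligodendrocyte and 5 microglia genes had a site, and none of these 6 lists had an acute site. For scale, 2.64% of all protein-coding genes had a lower susceptible site, and 29.8% of those at least as long as Camk2d. After acute stress 1.13% of all had a lower and 1.11% a higher site. Tnr is 408 kb long, while the median length in the medium spiny neuron list is 9.39 kb. With lists this short, nothing about cell types follows from these counts. The lists of differing sites do not give levels elsewhere, so the cell makeup of the libraries could not be read from them, and its part in the sites was not tested.

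By Euclidean distance over log2(normalised count + 1), the gene body or promoter site most like that of Anks1b over the 5 libraries was in Garem, at a distance of 0.145. For Camk2d it was in Tenm4 (0.0918) and for Gphn in Ptprb (0.465). For the second Magi2 site 2 other sites had the very same 5 values, those of 4930524B15Rik and Impdh1. For Dlg2 the nearest over 4 libraries was in Sgcd (0.0878). Each site holds few reads, so its values come in coarse steps of 1 read.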

How the data were processed

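The H3.3 ChIP-seq data are on build mm10, with Bowtie2 2.2.0 and SAMtools 0.1.19 named, per the submitters' processing notes. The 2 deposited tables come from diffReps with windows of 250 bp and a p threshold, per the table names. No source used here gives its version, test, normalisation or read filters. The deposited count cells hold normalised read counts, 1 value per library. The averages are the mean signal of a group in the same unit, per the file headers. The authors deposited an enrichment ratio, a log2 fold change, a p-value and an adjusted p-value for each site.

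Values within a library were whole multiples of 1 step, the value of 1 read, for 99.9% to 100% of values within 0.011. The steps were 1.63, 0.828 and 1.47 in susceptible and 0.918 and 0.534 in control libraries of the susceptible list, and 0.951 and 1.43 in acute stress and 1.08 and 0.657 in control libraries of the acute list. With no library totals at hand, the steps are the measure of relative depth. Dividing by the steps gave reads for a two-sided exact binomial (counting) test and exact Clopper-Pearson 95% intervals, which cover counting error only. The procedure was tested on simulated data, whose settings and outcome are not given here, so no support is drawn from them. An exact permutation test of a site over libraries cannot go below p = 0.2 (3 against 2) or 0.333 (2 against 2) and was not run. Since the tables list differing sites only and their counts are normalised, no count model was fitted.

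Sites were matched to the genes by the tables' gene name with any number suffix removed (1 entry had one). RefSeq (GRCm38.p6) gave gene lengths and start windows, and 633 of 635 and 501 of 502 genes with a site were matched. Genes named are the 5 genes, the genes of the lists with a site, and the gene with the nearest profile to each gene's site of smallest p. A result of the GABA list is not reported here. Genes and lists were chosen with earlier results of these data known. Python 3.11.15, numpy 2.4.6, pandas 2.3.3, scipy 1.17.1 and matplotlib 3.10.9 were used.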

Additional observations from a re-analysis of the deposited data

How the results depend on the processing

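A pseudocount of 1 altered the folds only, since the authors' p was kept, so it could change no call. All 6 sites are of the gene body class, so taking that class alone could remove none of them. Neither setting is therefore a check on the calls. At the authors' p of 1e-05, 1 of the 5 susceptible sites (Anks1b) and 0 acute sites stayed, and the scaffold list had 1 gene with a lower susceptible and 0 with a lower acute site, the GABA list 0 and 0 in susceptible mice. The exact counting test, on reads recovered from the same counts, called 5 susceptible sites and 0 acute ones. With the smaller tail of the exact test doubled, a setting chosen after seeing the data, it called 4 and 0, and Gphn (p = 0.000107) was the site lost. With 1 library left out it called 0 to 3 susceptible sites and 0 acute ones. Libraries scaled to equal reads over all listed sites left 1 susceptible call, Gphn, and 1 acute call, with log2 fold changes of -0.15 at Anks1b, -0.34 and -0.83 at Magi2 and -0.50 at Camk2d. The susceptible list is nearly all lower sites, so this scaling removes by construction the difference they share, whatever its source. The calls rest on the authors' normalisation, and its part in that difference was not tested. An overlap of 50% of the shorter site also gave 0 shared sites. No result changed direction. No paired analysis was possible because the count cells do not carry the labels' replicate numbers. Reads per site, 32 to 47, limit the precision of every fold.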
